A study of Homo sapiens with 4 samples.

Results

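The aquaporin genes AQP1, AQP3, AQP7, AQP8, AQP9 and AQP11 were followed in Huh7, a long-used human liver cancer (hepatocellular carcinoma) line, after mock medium or hydrogen peroxide (H2O2). They were the 6 genes of that list found by symbol among 42067 gene names, and they held 9 of the 58146 transcript models in the deposited tables. For each gene the model with the most reads over the libraries was used. Both groups were Huh7 cultures for which the labels name no genetic change, kept for 4 days with fresh medium every day, and the treated group had 300 µM H2O2 in that medium. Each group had 2 libraries, 1 with the title letter H and 1 with the letter Q; the sources used here do not give what the letters stand for. Nothing in the labels said whether the libraries of a group came from separate cultures, so p-values measure the spread between these libraries, which may be technical.

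Aquaporins are membrane channels through which water crosses the lipid bilayer. Some of them, the aquaglyceroporins, also pass glycerol and urea, and some, called peroxiporins, pass H2O2, which crosses bare membranes slowly. In liver, AQP9 is the hepatocyte channel that takes up glycerol for the making of glucose, and AQP8 lies in the bile canaliculus and in inner membranes. AQP3, AQP7, AQP9 and AQP10 are the human aquaglyceroporins. AQP3, AQP8, AQP9 and AQP11 are known to carry H2O2, AQP11 in the membrane of the endoplasmic reticulum, and AQP1 is the classical water channel of red cells and vessel lining.

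A pair of short loops meets in the middle of the pore, each usually carrying the amino acids Asn-Pro-Ala, and the codons of the first loop are shown because AQP7 and AQP11 depart there from the other members. Each line gives the coding strand, with the 9 bases of the box in capitals and 12 bases on each side, from the GENCODE v29 transcript of the model used.
AQP1: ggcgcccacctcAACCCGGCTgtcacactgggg
AQP3: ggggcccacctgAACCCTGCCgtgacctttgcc
AQP7: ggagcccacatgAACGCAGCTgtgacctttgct
AQP8: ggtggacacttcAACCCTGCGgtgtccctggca
AQP9: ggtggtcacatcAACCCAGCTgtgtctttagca
AQP11: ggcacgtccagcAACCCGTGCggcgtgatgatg
The boxes of AQP1, AQP3, AQP8 and AQP9 encode Asn-Pro-Ala. AQP7 has Asn-Ala-Ala here, and AQP11 has Asn-Pro-Cys. In AQP7 the second loop also departs from the usual box and encodes Asn-Pro-Ser.
AQP7, second box: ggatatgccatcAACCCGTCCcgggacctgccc
On GRCh38 the first boxes lie in coding exons at chr7:30912123-30912155 (AQP1, plus strand), chr16:25221458-25221490 (AQP8, plus strand) and chr11:77590275-77590307 (AQP11, plus strand), and the second box of AQP7 lies at chr9:33385696-33385728 on the minus strand. The printed first boxes of AQP3 (chromosome 9, minus strand), AQP7 and AQP9 (chromosome 15, plus strand) each span a junction between exons. These are reference sequences, and the reads of the cells were not used here.

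Mapped mates numbered 78126878 to 88409567 per library, and 27702 genes were tested. All 8 hepatocyte markers fixed for the check of the cell label reached 1 CPM in every library, CPM being a gene's reads scaled to a common library size by TMM. Their summed level was 15619, 5098, 18727 and 10897 CPM, in the order mock H and Q and then H2O2 H and Q, which every sentence of 4 values keeps. In both groups Q was below H in this sum and in each marker but TTR (transthyretin). No gene of the series passed an adjusted p of 5% (0% of genes called, edgeR quasi-likelihood test), against 3.1% of genes higher and 3.75% lower in H2O2 at an unadjusted p under 0.05, and DESeq2 called 138 genes. In these bulk samples, fewer cells that express a gene and less RNA per cell cannot be told apart.

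All 6 members were detected and all 6 passed the read minimum. AQP3 and AQP11 supplied most of the signal, AQP3, AQP8 and AQP11 had both H2O2 libraries below both mock libraries, and AQP9 was the member with the largest difference towards higher levels. In fitted values 4 members were lower and 2 were higher in H2O2, with a median log2 difference of -0.75 beside -0.03 over all genes tested. None of the 6 passed the adjusted test. At an unadjusted p under 0.05 there was 1 member, AQP3, on the lower side and 0 on the higher side. The 3 members whose groups did not overlap stand beside 21.3% of all genes lower without overlap and 18.1% higher without overlap, and with 6 members nothing particular to aquaporins can be read from that count.

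**Figure D1:**
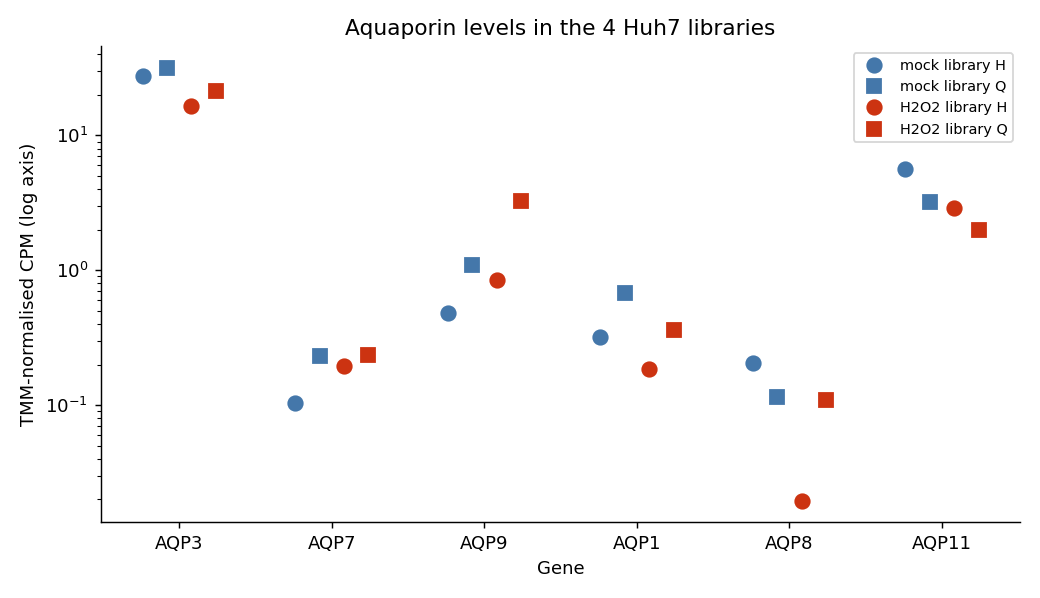
TMM-normalised CPM (log axis) of the 6 members in each library, with colour for the group and point shape for the title letter. AQP3 lies highest in every library, and AQP9 has its highest value, 3.24 CPM, in H2O2 library Q.

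Per length of transcript (CPM per kilobase, the scale on which genes can be compared), the mean levels of the members over the 4 libraries were 13.0 for AQP3, 1.60 for AQP11, 0.467 for AQP9, 0.152 for AQP7, 0.132 for AQP1 and 0.0829 for AQP8. AQP3 exceeded AQP11 in every library, and the ranges of these neighbours did not overlap. AQP11 and AQP9 overlapped, from 0.917 to 2.63 for AQP11 and from 0.160 to 1.07 for AQP9. AQP7, AQP1 and AQP8 could not be ordered beyond the spread of their libraries. In each library AQP3 made up between 78.2% and 85.7% of the summed CPM of the members, so the family's total largely follows this channel. That total was 34.1, 37.2, 20.7 and 27.2 CPM.

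AQP3, an aquaglyceroporin best known from skin and kidney and a carrier of H2O2 into cells, was at 27.4, 31.9, 16.6 and 21.3 CPM. Both H2O2 libraries were below both mock libraries, and the letters had the same order in each group. The means were 29.6 ± 3.18 CPM in mock and 18.9 ± 3.32 CPM in H2O2 (SD, n = 2). The log2 difference was -0.65 (SE 0.23), or 1.57-fold lower, with an adjusted p of 0.721 in edgeR's quasi-likelihood test. Within letter H it was -0.72 and within letter Q -0.58. AQP3 rested on 2649, 3860, 1691 and 2542 reads, by far the most of any member. Summed keratinocyte markers, the check for the skin cells in which AQP3 is abundant, were 26.2, 30.1, 37.0 and 44.2 CPM, with both H2O2 libraries above both mock libraries. KRT10 carried most of that sum, at 18.6, 20.3, 29.2 and 36.1 CPM. In fitted values 4 of the 6 markers were lower in H2O2, and DSG3 was lower without overlap. The part of such cells in the values of AQP3 was not tested.

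AQP11, the endoplasmic reticulum member, was at 5.66, 3.19, 2.92 and 1.97 CPM. The groups did not overlap, but mock Q and H2O2 H were close neighbours and Q was below H in each group. Its means were 4.42 ± 1.75 CPM in mock and 2.45 ± 0.668 CPM in H2O2 (SD, n = 2). The log2 difference was -0.85 (SE 0.39, adjusted p 0.728, edgeR), with -0.93 within H and -0.66 within Q. Between letters the log2 difference of Q over H was -0.81 in mock and -0.54 in H2O2, which is about as large as that between treatments. Without mock library H the difference in AQP11 was -0.39.

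AQP8, a water and H2O2 channel of hepatocyte canaliculi and mitochondria, was the least abundant member, with 20, 14, 2 and 13 reads. H2O2 library H stood far below the others, and the groups in Q were parted by a single read. The levels were 0.207, 0.116, 0.0196 and 0.109 CPM. Within H the ratio of H2O2 to mock was 0.0948, with an exact 95% interval from 0.0107 to 0.390, and within Q it was 0.941, from 0.407 to 2.16; these intervals cover counting error only. The fitted log2 difference was -1.27 (SE 0.89, adjusted p 0.783, edgeR). It was -0.55 without H2O2 library H and -2.95 without H2O2 library Q, so its size depended on which H2O2 libraries entered. In the deposited FPKM values the groups of AQP8 overlapped.

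AQP9, the hepatocyte aquaglyceroporin, was at 0.485, 1.09, 0.852 and 3.24 CPM, from 47, 132, 87 and 388 reads. H2O2 Q was the highest library by a wide margin, while H2O2 H lay between the mock libraries, so the groups overlapped. The means were 0.787 ± 0.427 CPM in mock and 2.05 ± 1.69 CPM in H2O2 (SD, n = 2), and the log2 difference was 1.37 (SE 0.74), 2.59-fold, with an adjusted p of 0.740 in edgeR. Within each letter H2O2 was above mock. In H the ratio was 1.75, with an exact 95% interval from 1.22 to 2.56, and in Q it was 2.98, from 2.44 to 3.66, both for counting error only. Without H2O2 library Q the log2 difference was 0.11, and without mock library Q it was 2.08.

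Per kilobase AQP9 amounted to 1.09%, 2.11%, 3.17% and 9.41% of AQP3. Its ratio to AQP11 on that scale was 0.0608, 0.243, 0.207 and 1.17, and in H2O2 Q the hepatocyte channel thus exceeded the endoplasmic reticulum one. In the deposited FPKM values AQP9 was at 2.32, 5.22, 3.95 and 15.0, and AQP11 at 12.9, 7.89, 6.28 and 5.63. The size of these ratios thus depended on the scale. In fitted values 7 of the 8 hepatocyte markers were higher in H2O2, with a median log2 difference of 0.51. The groups overlapped in 7 of the 8, and 1, APOB, was higher without overlap, beside 18.1% of all genes. Of the 8, 0 had an unadjusted p under 0.05 in edgeR. Albumin (ALB) was at 5987, 2559, 9136 and 5189 CPM, above mock in both letters, as AQP9 was, and lower in Q than in H, unlike AQP9. APOB, SERPINA1, FGB and AHSG were also above mock in both letters. TTR was below mock in both (-0.26 in H and -0.34 in Q), and APOA1 (-0.26) and TF (-0.40) were below mock in H only. Leukocytes also make AQP9, and their 6 markers summed to 9.61, 9.56, 17.2 and 11.8 CPM, with S100A8 at 0 reads in all libraries. That sum was highest in H2O2 H. Of the single markers, CD14, S100A9 and CSF3R were also highest in H2O2 H. PTPRC, which marks all leukocytes, was between 0.0516 and 0.272 CPM and highest in mock Q. ITGAM alone had the same order of libraries as AQP9, at 1.42, 3.59, 2.20 and 4.58 CPM. The part of hepatocyte content or of leukocytes in the values of AQP9 was not tested. Of the AQP9 transcript, 354 bases (11.7%) overlap exons of ALDH1A2, a retinoic acid enzyme gene on the opposite strand, and the sources used here do not give whether the counting used strand. ALDH1A2 was at 0.806, 0.759, 1.99 and 0.861 CPM, highest in H2O2 H, and the part of its reads in the values of AQP9 was not tested.

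**Figure D2:**
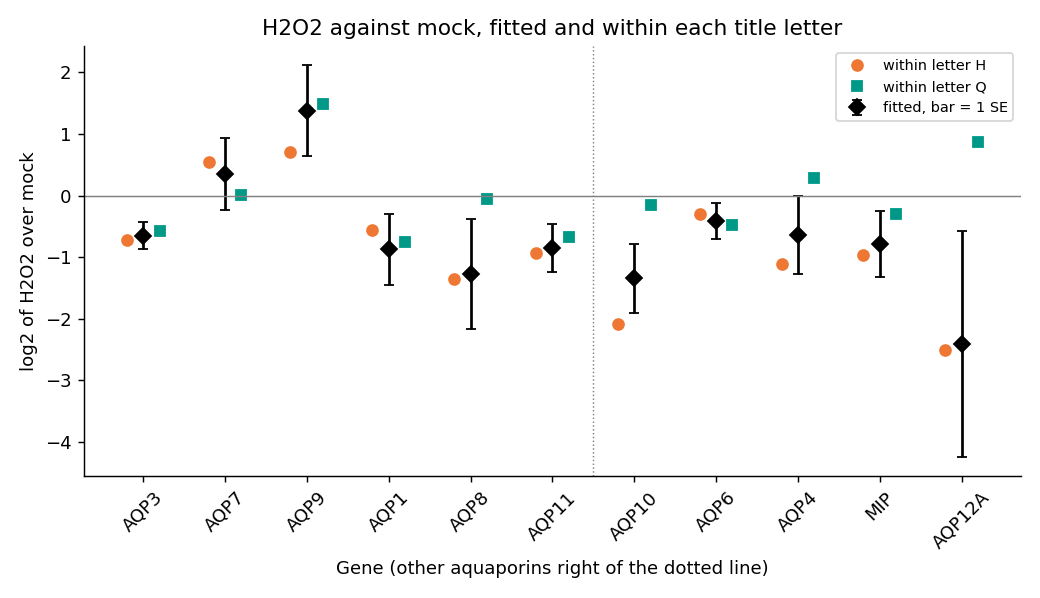
Log2 of H2O2 over mock for the 6 members and, right of the dotted line, 5 other aquaporin genes that were tested; diamonds are fitted values with bars of 1 SE, circles and squares are ratios within letters H and Q. AQP3 has the shortest bar (0.23), and AQP9 is the only gene shown whose fitted value and both within-letter values are above 0.5.

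AQP7, the glycerol exit channel of fat cells, was at 0.103, 0.231, 0.196 and 0.234 CPM from 10, 28, 20 and 28 reads. Mock H was lower than the other libraries and the groups overlapped. Its log2 difference was 0.35 (SE 0.58, adjusted p 0.892, edgeR), from 0.54 within H and 0.01 within Q, and it was -0.11 without mock library H and 1.05 without mock library Q. In 22.3% of its 50-base windows the transcript matches AQP7P1 or other genes. Of the 4 pseudogenes AQP7P1 to AQP7P4, 0 were found by symbol in the deposited tables. How reads of such copies were counted is not given, so the reads of AQP7 are uncertain. Fat cell markers summed to 5.495, 9.71, 4.10 and 6.68 CPM, and their part in the values of AQP7 was not tested.

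AQP1, the water channel of red cells and endothelium, was at 0.320, 0.677, 0.186 and 0.359 CPM, from 31, 82, 19 and 43 reads. The groups overlapped, and Q was above H in each. The log2 difference was -0.87 (SE 0.58, adjusted p 0.776, edgeR), with -0.55 within H and -0.76 within Q. At this low level the 0.1 CPM added before the ratio draws the within-letter values towards 0. Without each library in turn the fitted difference ran from -1.42 (without H2O2 Q) to -0.22 (without mock Q). Endothelial markers summed to between 3.18 and 4.17 CPM and red cell markers to between 6.52 and 7.86 CPM. SLC4A1 carried most of the red cell sum, at 7.48, 6.79, 6.20 and 6.75 CPM. HBB, the beta chain of haemoglobin, had 2, 2, 0 and 0 reads, and HBA1 had 17, 64, 8 and 25. Bile duct cell markers summed to 431, 469, 405 and 395 CPM, mostly from SOX9 and SLC4A2. Of these 6, 4 were lower and 2 higher in fitted values, and 2 were lower without overlap, beside 21.3% of all genes. KRT19 alone of the 6 had the order of libraries of AQP1, at 0.165, 0.503, 0.147 and 0.201 CPM. The part of such cells in the values of AQP1 was not tested. In the deposited FPKM values both H2O2 libraries of AQP1 lay below both mock libraries. In AQP1, 30.1% of the 50-base windows are shared with AC004691.2, a model on the same strand, so these reads are uncertain too.

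**Figure D3:**
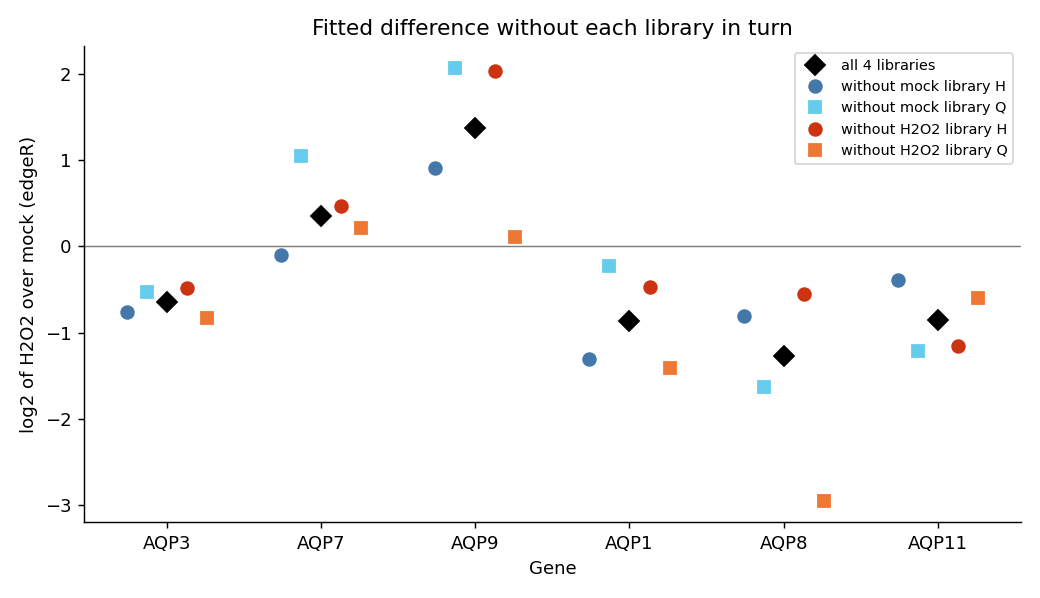
Fitted log2 of H2O2 over mock for each member with all libraries (diamonds) and without each library in turn. AQP3 keeps values between -0.83 and -0.48, AQP9 ranges from 0.11 to 2.08, AQP8 from -2.95 to -0.55, and AQP7 changes sign without mock library H.

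Libraries of the same group also differed by letter. Q was above H in both groups for AQP1, AQP3, AQP7 and AQP9. AQP11 was below in both, and AQP8 was below in mock (-0.51) and above in H2O2 (0.80). For AQP9 the log2 difference of Q over H was 1.02 in mock and 1.81 in H2O2, about as large as its differences between treatments within a letter (0.70 and 1.49).

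The RefSeq windows upstream of transcription starts (GRCh38.p14) of the members differed in base composition. AQP3 and AQP9 are shown as they were the most abundant member and the one with the largest difference towards higher levels. Each line gives 250 bases before the start, with motif matches in capitals.
AQP3: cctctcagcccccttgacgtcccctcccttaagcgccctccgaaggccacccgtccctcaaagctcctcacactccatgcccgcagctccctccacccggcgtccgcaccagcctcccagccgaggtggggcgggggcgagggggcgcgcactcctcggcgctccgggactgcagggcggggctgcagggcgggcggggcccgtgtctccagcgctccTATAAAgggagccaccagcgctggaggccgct
AQP9, first start: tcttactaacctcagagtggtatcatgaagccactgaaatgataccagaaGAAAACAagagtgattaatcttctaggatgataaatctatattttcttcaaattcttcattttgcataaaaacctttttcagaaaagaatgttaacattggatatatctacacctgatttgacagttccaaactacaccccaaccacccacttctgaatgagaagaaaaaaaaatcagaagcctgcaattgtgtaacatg
The AQP3 window, at chr9:33447594-33447843 on the minus strand, has 73.6% GC and 1 TATA box (TATAAA) 32 bases before the start. The AQP9 window, at chr15:58137919-58138168 on the plus strand, has 33.6% GC beside a median of 58.0% over all windows, and 1 forkhead core (TGTTTNC, here on the reverse strand) 200 bases before the start. The windows were searched on both strands for TGACNNNGC, the core of the antioxidant response element, TGANTCA, the AP-1 site, the forkhead core and the TATA box. These occur in 10.9%, 6.57%, 15.5% and 10.7% of all 35116 windows, and no overlap of one motif with another arose in the printed ones. AQP3 and the first AQP9 window hold neither the antioxidant response core nor the AP-1 site. AQP8 has 1 antioxidant response core, AQP1 has 1 TATA box, and AQP7 and the second AQP9 window hold none of the motifs. A match of letters is not a binding site. No promoter window is described for AQP11.

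Among the 8 other aquaporin genes, 5 passed the read minimum, and all 5 were lower in H2O2 in fitted values with a median log2 difference of -0.78; 0 passed the adjusted test. Of them, 3 had no overlap between groups, again beside 21.3% of all genes. Within letter Q, AQP4 (0.29) and AQP12A (0.88) were higher in H2O2. MIP, whose fitted value was that median, shares 76.7% of its 50-base windows with AC097104.1, so its reads are uncertain. AQP10, the aquaglyceroporin of the gut, was the second most abundant aquaporin per kilobase (mean 4.05 CPM per kilobase), above AQP11. It was at 15.7, 5.13, 3.61 and 4.58 CPM, so mock H stood apart from the other libraries. Its log2 difference was -1.34 (SE 0.55, adjusted p 0.721, edgeR), but -2.09 within H and -0.16 within Q. AQP12A, a pancreatic member, had 56, 0, 2 and 10 reads, and its near copy AQP12B had 63, 2, 2 and 7, which also puts mock H apart. Reads of these copies cannot be told apart with certainty.

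Genes that make, store or use glycerol were divided evenly between the directions. Of 12 glycerol handling genes tested, 6 were higher and 6 lower in fitted values, the median log2 difference was 0.00, and 0 passed the adjusted test. The largest differences were in GPD1 and GPD1L, a glycerol-3-phosphate dehydrogenase and its relative. GPD1 was at 1.07, 1.63, 0.450 and 0.677 CPM, with a log2 difference of -1.26 (SE 0.39, adjusted p 0.721, edgeR), and GPD1L was at 13.4, 16.7, 29.5 and 21.6 CPM, with 0.76 (SE 0.25). The pair thus differed in opposite directions, and in each the groups did not overlap, while the other 10 genes of the list overlapped. Over all genes tested, 18.1% were higher and 21.3% lower without overlap, so nothing particular to glycerol genes can be read from this.

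Of 5 genes for urea and ammonia channels, other small solutes that aquaporins can pass, 3 were tested and all 3 were lower, with a median of -0.70 and 0 past the adjusted test. The urea transporter SLC14A1 was at 1.04, 0.924, 0.441 and 0.535 CPM, a log2 difference of -1.01 (SE 0.33, adjusted p 0.721, edgeR). The ammonia channel RHBG was at 3.40, 3.08, 2.23 and 1.75 CPM, a log2 difference of -0.70 (SE 0.27). In both the H2O2 libraries lay below the mock libraries, beside 21.3% of all genes lower without overlap. With 3 genes tested, nothing particular to this list can be read from that.

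**Figure D4:**
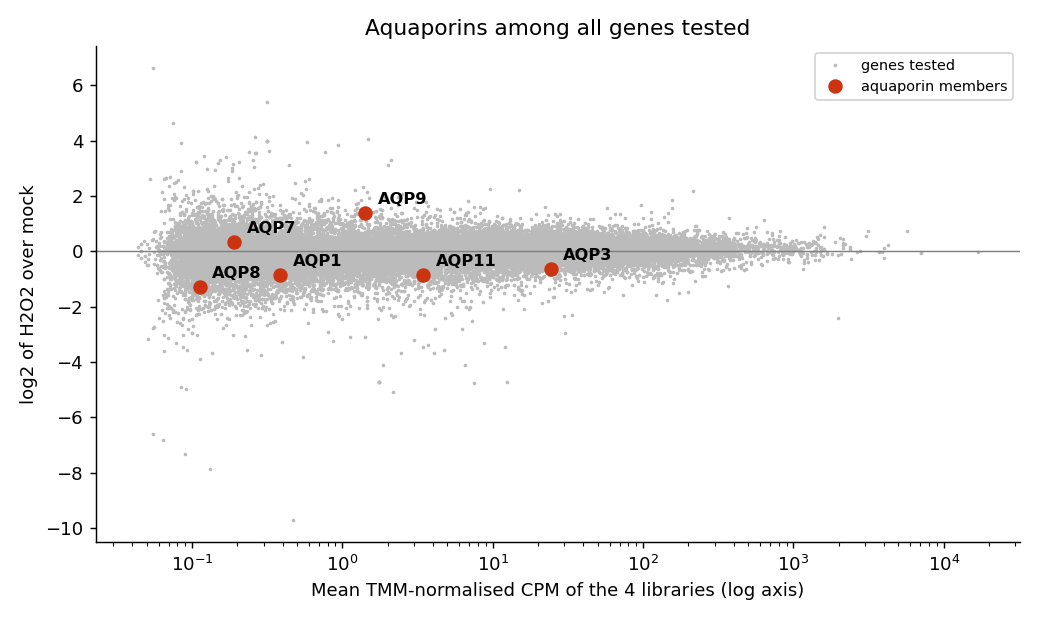
Log2 of H2O2 over mock against mean TMM-normalised CPM (log axis) for all genes tested, with the 6 members marked. AQP3 (-0.65) lies at the highest mean level of the members, AQP8 (-1.27) at the lowest, and AQP9 (1.37) is the furthest above 0.

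The genes whose pattern over the 4 libraries was most like that of a member were found by distance. It was taken on log2 of CPM plus 0.1, centred on each gene's mean. The genes compared were 11324 RefSeq mRNA genes of at least 5 CPM (11323 for AQP3, which was itself in that set). For AQP9 the nearest were HERC5 (distance 0.377) and ISG15 (0.403), both known as genes induced by interferon, and 5 genes lay within 0.5. HERC5 was at 7.45, 11.0, 10.5 and 31.9 CPM and ISG15 at 10.4, 17.1, 13.0 and 40.4 CPM, both with H2O2 Q highest. AQP3 had 1054 genes within 0.5, the nearest being ECE1 (0.0447) and JOSD1. For AQP11 they were MARVELD1 (0.0930) and CACFD1, with 178 within 0.5. AQP8 had DEFB1 and CNTNAP2 nearest and 91 genes within 0.5, AQP1 had PQLC2 and GDA and 329, and AQP7 had ARHGEF3 and ZKSCAN8 and 2601. The added 0.1 flattens the patterns of AQP1, AQP7 and AQP8, which were low, so their neighbours and counts depend on it. With 4 libraries these distances describe the pattern over the same libraries only.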

How the data were processed

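RNA was sequenced from 2 mock and 2 H2O2-treated Huh7 libraries, built by TruSeq chemistry (Illumina) from total RNA, per the labels' protocols. The submitters' processing notes name TopHat 1.3.3, Bowtie 0.12.2, Cuffdiff and CASAVA as tools and GRCh37, hg19 and mm8 as builds, without saying which did what. The counter, annotation and strand setting are not given in the sources used here. Each row of the deposited tables, per the file headers, gives 1 transcript model with its read count and FPKM. Other values, the mapped mates, came from the deposited alignment summaries. The deposited counts of 1 model per gene totalled 103851326, 108117565, 113082498 and 112972746, above the mapped mates; the source of the excess was not tested, and counting intervals may be too narrow. The deposited FPKM did not follow count over length (their ratio ran from 4.90 to 14.5 among members in mock H) and served alternatives only.

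The model with the most reads stood for each gene, genes with at least 10 reads in at least 2 libraries were kept (16491 with RefSeq mRNA, 10494 lincRNA models and 717 others), and groups were compared with edgeR 4.0.16 (TMM, two-sided quasi-likelihood test, treatment as sole term, common biological coefficient of variation 0.309 on 2 residual degrees of freedom, Benjamini-Hochberg adjustment over all genes, threshold 0.05). The SE is the log2 difference over the root of its F statistic. Within-letter ratios used CPM plus 0.1, which draws those of low genes such as AQP1, AQP7 and AQP8 towards 0. DESeq2 1.42.0, limma 3.58.1 on log2(FPKM + 1) and other scalings and filters were alternatives. The fit was also run on simulated data, and the outcome of that run is not reported here. Lengths came from GENCODE v29, matched by accession for 6 of 6 members, and promoters from RefSeq by symbol for 5 of 6.

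Members and lists were chosen with earlier results of these data known; the TATA box was added to the motifs after the sequences were seen. Named genes are the members, those a count requires, and the 2 genes nearest each member in pattern. The 2 largest differences are named for the other aquaporins, the glycerol genes and the urea and ammonia genes. Single cell type markers were named outside this rule, as was ALDH1A2, whose exons overlap those of AQP9.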

Additional observations from a re-analysis of the deposited data

How the results depend on the processing

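For all genes, the number called at an adjusted p of 5% was 0 with edgeR, 138 with DESeq2, 9 with no filter other than 1 read, and 42 with the letter as a replicate block, none of these fits calling a member. Without each library in turn it ran from 0 to 13, the 13 without mock library Q. Since 2 letters of unstated meaning cannot show that libraries are paired, the block is no main result. AQP3, AQP9 and AQP11 kept their direction in all 14 alternatives, and AQP1 and AQP8 in all 13 that gave a value, as the filter on FPKM of at least 1 left these 2 out. AQP7 reversed to -0.0695 on log2(FPKM + 1) and -0.0817 on log2(FPKM + 0.1), and ran from -0.11 to 1.05 without each library. The adjusted p over the alternatives ran from 0.1249 to 0.9999 for AQP3, 0.133 to 0.9999 for AQP9 and 0.148 to 0.9999 for AQP11, lowest with the block. Without mock library H, 5 of 6 members were lower, and 4 without any other library. On log2(FPKM + 0.1) the difference was -1.60 for AQP1, and on log2(FPKM + 1) it was -0.60 for AQP8. Depth limits AQP7 and AQP8, which had at most 28 and 20 reads in a library.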
